A study of Mus musculus with 22 samples.

Results

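The genes described here are the axon guidance ligands and receptors on an Agilent two-colour mouse array: semaphorins of classes 3 to 7, plexins, neuropilins, ephrins, Eph receptors, Slits, Robos, netrins, Unc5 receptors and Dcc. They were chosen by gene name in the scanner files. No measured difference entered the rule, but the set was chosen with earlier results of these data known. The names matched 65 genes with 110 probes, of 29273 named features with 41174 probes on the array, and each gene was read from its probe of highest mean signal. There were 33 ligands and 32 receptors: 19 semaphorins, 10 plexins and neuropilins, 8 ephrins, 13 Eph receptors, 7 Slits and Robos, and 8 netrins, Unc5 receptors and Dcc.

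Growing axons steer by membrane-bound and secreted cues. Semaphorins act through plexins, and most secreted semaphorins need a neuropilin to form the receptor complex. Ephrins are bound to the cell surface and signal in both directions with the Eph receptor tyrosine kinases. Slits repel axons through Robo receptors, and netrins attract axons through Dcc or repel them through Unc5 receptors. The same families also act in blood vessel growth and in the movement of newly born neurons.

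RNA was taken from frozen slices of whole brain of mice labelled as knockout for Agtr2, the gene of the angiotensin II type 2 receptor, and of mice labelled as control. At embryonic day 15 (E15) there were 8 knockout and 6 control animals on 14 arrays, and at postnatal day 1 (P1) 4 knockout and 4 control animals on 8 arrays. Each array carried 1 knockout and 1 control in opposite dyes, and each knockout was hybridised in both dye orientations except E15 replicates 3 and 4. In E15 replicates 1 and 2 the orientations were hybridised with different control animals. Strain, sex and litter are not given in the sources used here. P1 controls carry no number in the labels and are numbered here by the knockout they were hybridised with. Both arrays of a P1 knockout are assumed to carry the same control animal, and the count of 4 P1 controls rests on this. The samples are labelled as biological replicates, and nothing in the labels says whether animals shared a litter.

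Between 71.3% and 89.5% of non-control spots were well above background per array, averaged over its channels. The Agtr2 probe did not separate the labels: its signal ran from 71.3 to 568 in E15 controls and from 74.7 to 136 in E15 knockouts, and from 67.2 to 75.4 in P1 controls and from 66.1 to 82.4 in P1 knockouts. Whether this probe lies in the deleted part of the gene is not given in the sources used here, so it is no check of the labels. All 8 neuronal markers on a fixed list passed the filter on dim probes. Summed signal of 10 markers of meninges and fibroblasts ran from 4520 to 55237 in E15 controls and from 4630 to 56291 in E15 knockouts, highest in control 1 and knockout 8, but only from 3321 to 4528 in P1 controls and from 3424 to 4460.5 in P1 knockouts. The 8 skeletal muscle markers were highest in the same E15 animals, and the 10 forebrain markers were lowest in them. Their part in the results below was not tested, except by leaving these animals out.

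The promoters of the 2 genes that rose most and the 2 that fell most with age, among called genes with a single usable start listed by RefSeq, are shown because these are the genes the comparison of ages turns on. Each is the stretch of 250 bases before the start, read 5′ to 3′ along the gene in build GRCm38.p6. Capitals mark the GC box (GGGCGG or its reverse complement), bound by Sp factors, and the E-box CAGCTG (the same on both strands), bound by proneural factors. Neighbouring GC boxes can overlap. Epha5 lies at chr5:84417383-84417632 on the minus strand, Ntn4 at chr10:93640799-93641048, Efnb1 at chrX:99135811-99136060 and Sema5b at chr16:35541112-35541361, these 3 on the plus strand.
Epha5: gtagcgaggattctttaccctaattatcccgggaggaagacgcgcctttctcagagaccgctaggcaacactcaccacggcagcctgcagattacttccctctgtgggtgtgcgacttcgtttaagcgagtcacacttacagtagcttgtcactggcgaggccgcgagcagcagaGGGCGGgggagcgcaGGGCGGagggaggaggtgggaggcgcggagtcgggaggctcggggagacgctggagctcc
Ntn4: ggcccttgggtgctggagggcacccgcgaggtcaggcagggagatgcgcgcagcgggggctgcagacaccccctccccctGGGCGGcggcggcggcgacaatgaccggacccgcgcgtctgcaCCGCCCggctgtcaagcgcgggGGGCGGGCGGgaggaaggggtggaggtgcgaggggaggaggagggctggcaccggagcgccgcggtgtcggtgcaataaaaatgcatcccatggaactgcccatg
Efnb1: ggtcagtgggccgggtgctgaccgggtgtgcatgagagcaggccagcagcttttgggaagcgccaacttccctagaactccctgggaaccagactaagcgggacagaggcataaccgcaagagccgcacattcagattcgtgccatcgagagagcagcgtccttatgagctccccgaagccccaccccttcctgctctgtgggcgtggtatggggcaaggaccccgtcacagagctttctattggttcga
Sema5b: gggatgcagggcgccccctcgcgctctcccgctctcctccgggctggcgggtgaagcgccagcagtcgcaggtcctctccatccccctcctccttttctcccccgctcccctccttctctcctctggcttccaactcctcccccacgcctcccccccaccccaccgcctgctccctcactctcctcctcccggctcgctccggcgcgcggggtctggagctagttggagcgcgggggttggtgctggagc
The Epha5 stretch held 2 GC boxes and the Ntn4 stretch 4, while these letters were not in the Efnb1 and Sema5b windows. The 4 windows do not stand for the called genes at large: a GC box was in at least 1 window of 8 of the 9 listed genes that rose and of 9 of the 13 that fell. Of all 32851 listed windows of the same length, 32.7% held a GC box and 13.0% the E-box. Counted per gene, in at least 1 window, the GC box was in 41 of the 55 listed guidance genes (74.5%), against 35.4% of all 27025 listed genes. The E-box was in 9 of the 55 (16.4%), against 14.7%. Genes with more listed windows have more chances of a hit. Neither the windows per gene nor the G and C content of the 55 genes was compared with those of all genes. G and C made up between 60.0% and 73.2% of the 4 windows, against a median of 52.4% over all windows.

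The first comparison asked how the level of each gene in control brain differed between E15 and P1. Of the 65 genes, 11 rose and 16 fell at an adjusted p under 0.05 (limma, Benjamini-Hochberg adjustment over all 24427 features tested), and 38 passed neither way. A feature entered this test if at least 50% of the control channels of either age read it well above background. Dcc, Plxna4 and Sema3d entered through P1 alone, and of these Dcc was among the genes called higher, a call that the filter favours. Over all features 10.7% were called higher and 22.8% lower, together 33.5%, against 41.5% of the guidance genes. The counts by family below are to be read beside these shares. Outlier spots, left out here, numbered 52 to 381 per array at E15 and 287 to 3343 at P1. With them kept, 38.3% of all features were called. Of the called features 42.7% were then higher, against 32.1% without outlier spots. Of the called guidance genes 36.7% were then higher, against 40.7%. The median change on the log2 scale was -0.03 over the guidance genes and -0.09 over all features. Ligands rose in 8 and fell in 7 of 33 cases, and receptors rose in 3 and fell in 9 of 32. The values of the 6 E15 and 4 P1 controls did not overlap for 23 of the 65 genes, against 25.7% of all features.

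**Figure D1:**
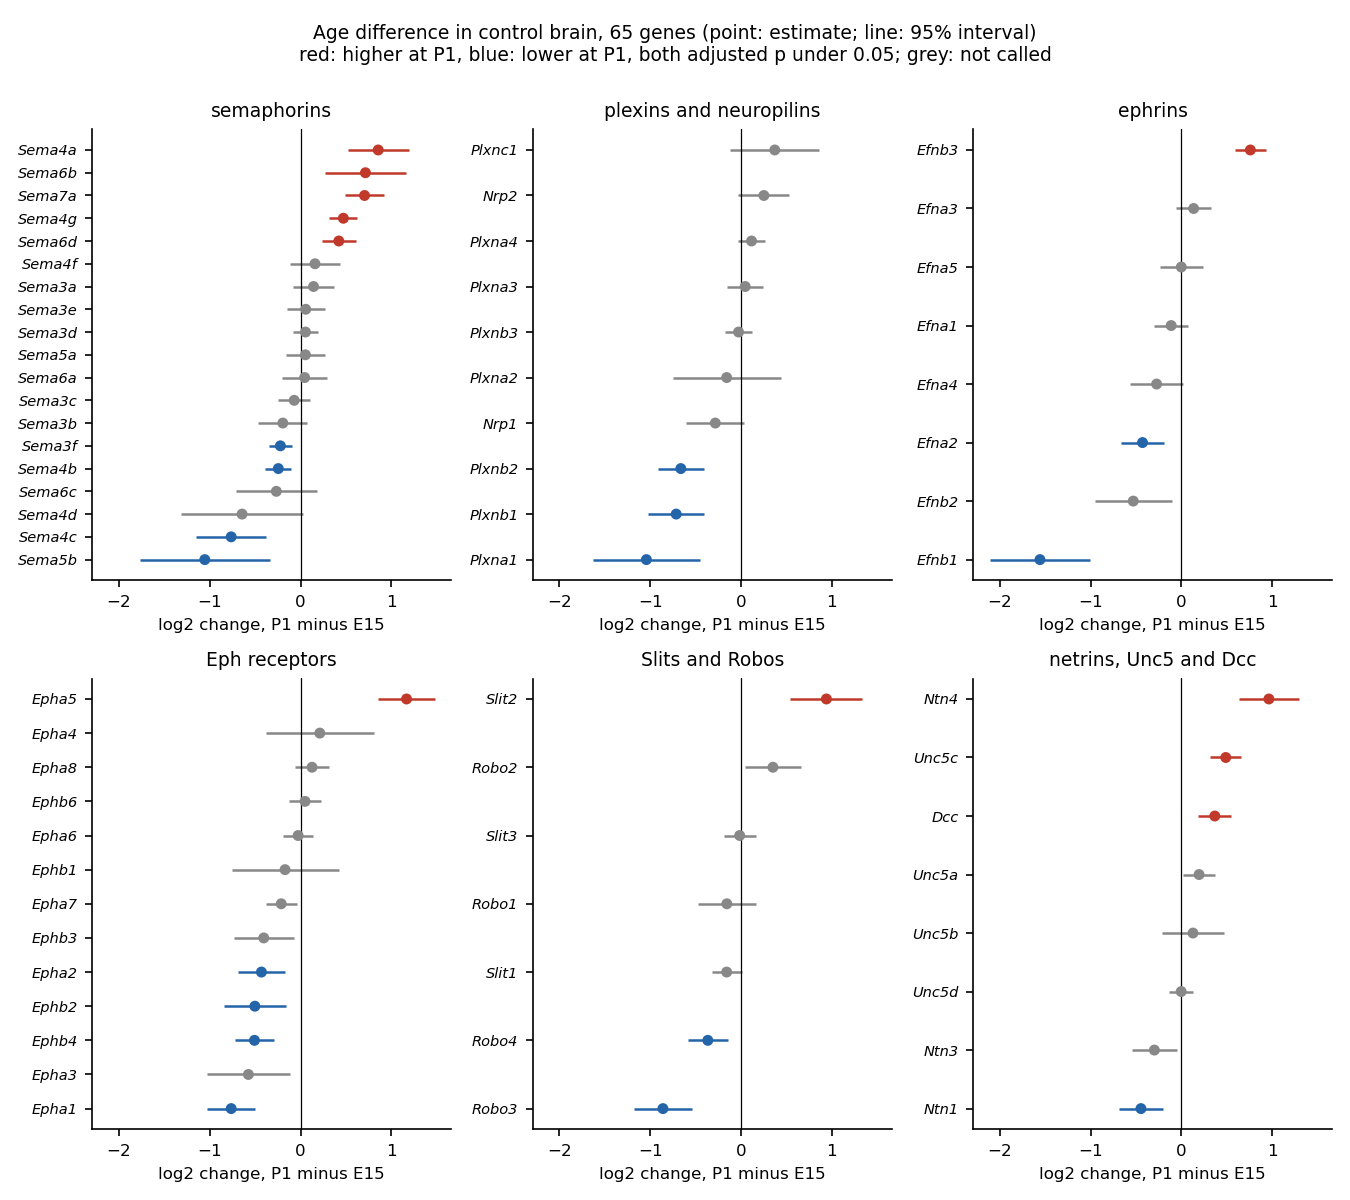
Log2 change in control brain from E15 (6 animals) to P1 (4 animals) for all 65 genes, by family; points are limma estimates, lines their 95% intervals, red and blue mark adjusted p under 0.05 higher or lower at P1, grey marks genes not called. Epha5 stands highest at 1.17 and Efnb1 lowest at -1.56, and each family holds called genes. No plexin or neuropilin was called higher, where 10.7% of all features were.

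Among the 19 semaphorins, 5 rose and 4 fell, and the family median was 0.05. Sema4a, a transmembrane semaphorin, had signals of 240.1 (lowest), 285 (median) and 331 (highest) in E15 controls and of 528, 384, 498 and 686 in the 4 P1 controls. No P1 value reached down to the E15 range, and the change was 0.85 ± 0.15 (log2, SE), 1.81-fold, with a limma adjusted p of 0.00217. Signals here are linear values after normalization that still hold an added offset of 50, so changes of dim probes are understated, and levels cannot be compared between probes. Sema6b, a transmembrane ligand of A-type plexins, had signals between 149 and 317 (median 236) at E15 and of 341, 399.8 and 412 in the 3 P1 controls with a value. All 3 lay above the E15 animals, by 0.71 ± 0.20 (adjusted p = 0.0214). Sema6b in P1 control 2 and Sema4a in P1 controls 1 and 2 were read in a single dye, with the mean dye effect of the other animals taken off.

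Sema5b and Sema4c fell. Sema5b, a transmembrane protein with thrombospondin repeats, had E15 signals of 610.4, 1266 and 2412 (lowest, median, highest) and P1 signals of 695, 516, 518 and 699.9. The groups overlapped, with E15 control 1 highest and E15 control 4 within the P1 range. The change was -1.05 ± 0.32 (adjusted p = 0.0284), and leaving out E15 control 2 or 6 gave 0.0525 and 0.0553, and P1 control 2, 3 or 4 gave 0.0762, 0.0785 and 0.0507. Without E15 controls 1 and 2 together, the pair with the most meningeal signal, it was -0.70 (adjusted p = 0.0420). Sema4c, a ligand of plexin B2, ran from 264 to 442 (median 307) at E15 and read 238, 224, 154 and 163 at P1, without overlap, a change of -0.76 ± 0.18 (adjusted p = 0.00761).

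The other called semaphorins changed by less. Sema7a, which is anchored by a lipid and binds plexin C1 and integrins, rose by 0.70 ± 0.10 from a median of 518 to 819.8, 947, 793 and 822 (adjusted p = 0.000568). Sema4g rose by 0.47 ± 0.07 and Sema6d by 0.42 ± 0.09, both without overlap between the ages. Sema3f, a secreted repellent that acts through neuropilin 2, changed by -0.22 ± 0.06, and Sema4b by -0.25 ± 0.06, again without overlap. The remaining 10 semaphorins, among them the secreted Sema3a, lay between -0.64 (Sema4d, adjusted p = 0.126) and 0.16 (Sema4f). For Sema4d the 6 E15 controls alone ran from 369.8 to 1268.

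Of the 10 plexins and neuropilins, 3 plexins fell, none rose, and 7 were not called, with a family median of -0.09. Over all features 22.8% were called lower and 10.7% higher, with a median of -0.09, and the counts of this small family are near those shares. Plxna1, the signalling partner of neuropilins for secreted semaphorins, had E15 signals of 278, 526 and 866 (lowest, median, highest) and P1 signals of 225, 278, 270.5 and 225. The lowest E15 value only just cleared the highest P1 value, and the change was -1.04 ± 0.27 (adjusted p = 0.0129). Plxnb1, the receptor of Sema4d, ran from 258 to 437 (median 337) at E15 and read 200.3, 225, 211 and 177 at P1, a change of -0.71 ± 0.14 (adjusted p = 0.00329). Plxnb2 ran from 410.1 to 629 (median 573) and read 357, 319, 349.8 and 340.3, a change of -0.66 ± 0.11 (adjusted p = 0.00174). In both B-type plexins every P1 control lay under every E15 control. The neuropilins were not called, at -0.28 ± 0.14 for Nrp1 (adjusted p = 0.155) and 0.25 ± 0.13 for Nrp2 (adjusted p = 0.15), and neither was Plxnc1, the receptor of Sema7a, at 0.37 ± 0.22 (adjusted p = 0.221).

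The 2 largest changes among ephrins ran in opposite directions, in members of the same transmembrane B class. Efnb1 had E15 control signals of 484, 414, 998, 902, 779 and 861 and P1 signals of 313, 217, 223 and 215. It was 2.94-fold lower at P1, by -1.56 ± 0.25 (adjusted p = 0.00126), without overlap. The 2 lowest E15 values belonged to controls 1 and 2, and without these animals the change of Efnb1 was -1.88 (adjusted p = 6.3e-05). Efnb3, known as a midline barrier to corticospinal axons, ran from 538 to 704 (median 616) at E15 and read 1036, 1022, 1064 and 1084 at P1. Its change was 0.76 ± 0.08, 1.69-fold, with the lowest adjusted p of the 65 genes (0.000124). Efna2 changed by -0.43 ± 0.11 (adjusted p = 0.0107), with the highest P1 value (112) above the lowest E15 value (109). The other 5 ephrins were not called, and Efnb2, a ligand of Ephb4, came nearest at -0.53 ± 0.19 (adjusted p = 0.0553).

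**Figure D2:**
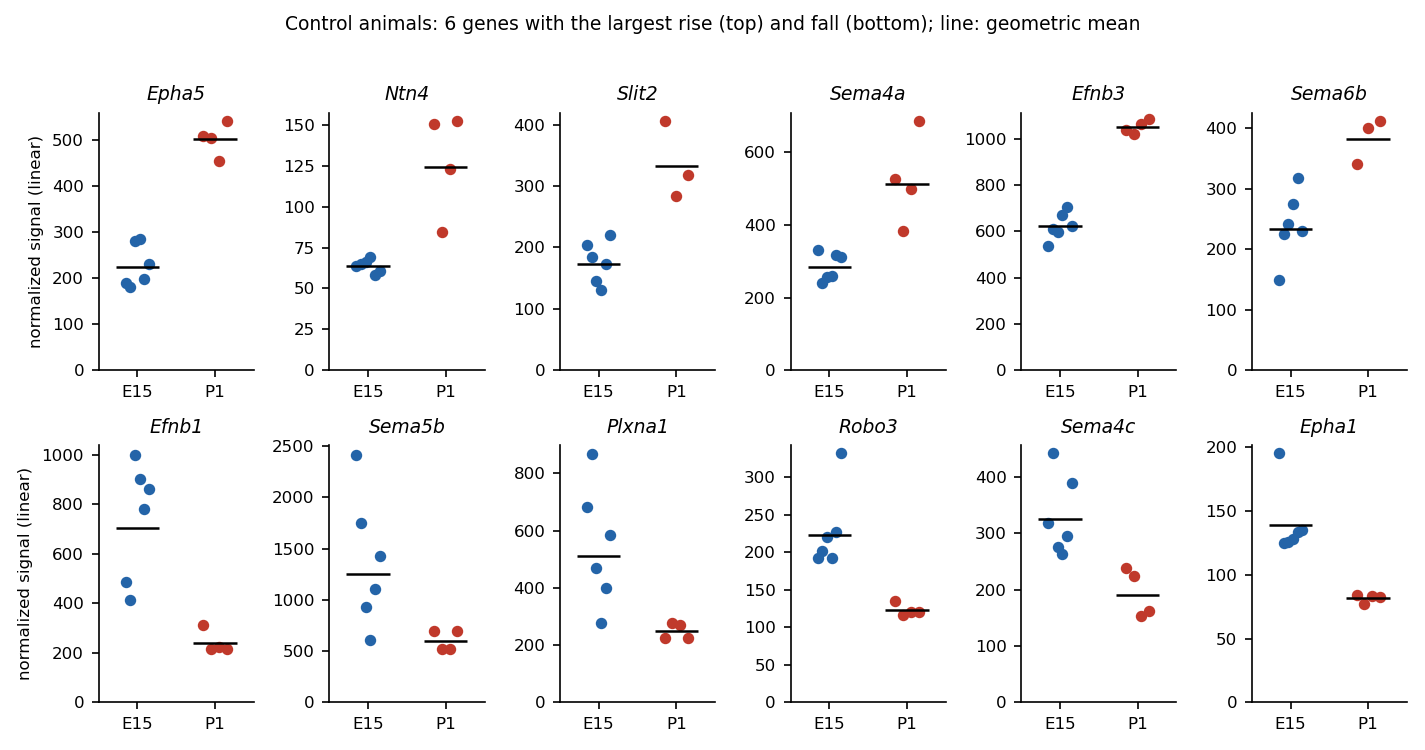
Normalized signal (linear axis from 0) of each control animal at E15 (blue, 6 animals) and P1 (red, 4 animals, 3 for Slit2 and Sema6b) for the 6 genes of largest called rise, top, and fall, bottom; lines are geometric means. Efnb3 sits between 538 and 704 at E15 and between 1022 and 1084 at P1, while Sema5b overlaps between the ages.

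Among the 13 Eph receptors 1 rose and 4 fell, with a median of -0.21. Epha5, which reads A-type ephrins in the mapping of forebrain and visual projections, had E15 signals of 189, 180.0, 281, 286, 198 and 232 and P1 signals of 510.4, 505, 456 and 542. Every P1 control was far above every E15 control, and the change of 1.17 ± 0.14, 2.24-fold, was the largest rise of the 65 genes (adjusted p = 0.000292). Epha1 fell by 0.76 on the log2 scale, with an SE of 0.12 (adjusted p = 0.00112), from 125 to 195 (median 131) at E15 to 84.0, 76.8, 82.9 and 82.6 at P1. Its E15 control 1 stood apart from the other 5, which lay between 125 and 135.

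Ephb4, the receptor of Efnb2 that marks venous endothelium, ran from 108 to 147 (median 131) at E15 and read 81.1, 86.5, 89.7 and 106 at P1, a change of -0.51 ± 0.10 (adjusted p = 0.00337). The groups did not overlap. Epha2 changed by -0.43 ± 0.12 (adjusted p = 0.0163) and Ephb2, which takes part in commissural axon growth, by -0.50 ± 0.15 (adjusted p = 0.0283), both with overlapping groups. The Ephb2 call was lost without E15 control 2 or 5 (adjusted p = 0.0524 and 0.0516) and without P1 control 1, 2 or 4 (0.0702, 0.0559 and 0.0906). Of the 8 receptors not called, Epha7, Epha3 and Ephb3 had adjusted p of 0.0543, 0.0548 and 0.0579 with changes of -0.21, -0.58 and -0.41. Epha4, a receptor for both ephrin classes, changed by 0.21 ± 0.27, with P1 values from 365 to 778.

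In the Slit and Robo family 1 of 7 genes rose and 2 fell. Robo3, which lets commissural axons cross the midline, had E15 signals of 193, 202, 220.2, 193, 227 and 332 and P1 signals of 136, 116, 121 and 121. It fell by 0.86 on the log2 scale, with an SE of 0.14 (adjusted p = 0.00147), without overlap. Robo4, a receptor of endothelial cells, ran from 230.0 to 276 (median 250.2) at E15 and read 225, 158, 189.8 and 211 at P1, a change of -0.37 ± 0.10 (adjusted p = 0.0162). Of 9 markers of endothelium and pericytes none was higher at P1 and 3 were called lower, where 22.8% of all features were called lower. Their summed signals were 1961 to 3101 in E15 controls and 1647 to 1990.0 in P1 controls. The part of these markers in the Robo4 and Ephb4 values was not tested. In bulk tissue fewer cells of a type and less RNA per cell cannot be told apart. Robo1 and Robo2, the main receptors of Slits on axons, were not called, at -0.16 ± 0.15 and 0.35 ± 0.14 (adjusted p = 0.433 and 0.0781).

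Slit2, a secreted repellent, depended on the probe. Its probe of highest signal ran from 129.9 to 220.2 (median 179) at E15 and read 405, 284 and 318 in 3 P1 controls, the first animal having no value, a change of 0.94 ± 0.18 (adjusted p = 0.00354). Both probes of Slit2 that matched a RefSeq transcript by accession differed the other way, by -0.55 and -0.27, and the mean of the gene's probes changed by 0.02 (adjusted p = 0.799). The direction of Slit2 thus differed between its probes.

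The group of netrins, Unc5 receptors and Dcc held 3 risers and 1 faller among 8 genes, and its median of 0.16 was the highest of the 6 families. Dcc, whose limits are given below, is 1 of the 3 risers and is counted in the median. Ntn4, a netrin of basement membranes that is related to laminins, had signals of 58.1, 64.4 and 69.4 (lowest, median, highest) at E15 and of 150.4, 84.5, 123 and 153 at P1, without overlap. It changed by 0.96 ± 0.15 (adjusted p = 0.00102). Only 7 of 14 E15 control channels read Ntn4 well above background, against 8 of 8 at P1, and P1 controls 1 and 2 were read in a single dye. Dcc, the attractive netrin receptor, was well above background in 3 of 14 E15 control channels and 8 of 8 at P1. Its signals ran from 55.4 to 63.5 (median 58.7) at E15 and read 74.4, 64.6, 82.4 and 83.5 at P1, a difference of 0.37 ± 0.08, with P1 controls 2 and 3 read in a single dye. Since Dcc was mostly not well above background at E15 and entered the test through P1 alone, its difference is given as a description. With an offset of 10 in place of 50 the changes were 1.86 for Ntn4 and 0.90 for Dcc.

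Unc5c, a receptor for repulsion by netrins, rose by 0.49 ± 0.08 from between 117 and 149 (median 132) to 195, 172, 191 and 192, without overlap (adjusted p = 0.00112). Ntn1, the floor plate attractant and ligand of Dcc, ran from 90.9 to 134 (median 105) at E15 and read 71.4, 74.0, 83.4 and 84.5 at P1. It changed by -0.45 ± 0.11 (adjusted p = 0.0117). The other 4 genes of the family were not called, from -0.30 for Ntn3 (adjusted p = 0.0607) to 0.19 for Unc5a (adjusted p = 0.0799).

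Probes of a gene often disagreed. Of the 13 called genes with several probes, Epha5 and Plxnb2 had no P1 value from their other probe. Of the 11 with several probes measured, 3 (Plxnb1, Robo3 and Sema3f) had every one in the direction of the chosen probe. For Ephb2, Ephb4, Ntn1, Plxna1, Sema4c, Sema5b, Sema6d and Slit2 at least 1 other probe lay on the other side of 0. For Ephb2, Ephb4, Ntn1 and Sema6d that probe was dim, with mean signals of 65.6, 73.8, 63.5 and 60.3. It changed by 0.06, 0.18, 0.05 and -0.01, and changes of dim probes are understated. The other probe of Plxna1, with a mean signal of 317 against 459.8 for the chosen one, changed by 0.03, and that of Sema4c, with 238 against 303, by 0.15. Sema5b read -0.75 from another probe and 0.07 from the remaining one. As the mean of its probes, Ephb2 was -0.22 (adjusted p = 0.0779), Ntn1 -0.20 (0.0640), Sema4c -0.31 (0.102) and Sema6d 0.17 (0.0816), none of them past the threshold, while Plxna1 at -0.51 and Sema5b at -0.58 stayed past it.

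E15 arrays were scanned on 3 days and P1 arrays on 1 other day with another version of the scanner software, so scan day, software version and age cannot be told apart. With scan day as a random block, 9 genes were called higher and 6 lower, 15 of the 27. Epha5, Ntn4, Slit2, Sema4a, Efnb3, Sema7a, Unc5c, Sema4g and Sema6d remained higher, and Efnb1, Robo3, Epha1, Plxnb1, Plxnb2 and Ephb4 remained lower. Others missed the threshold with changes close to those above. Under this block Plxna1 was at -0.996 (adjusted p = 0.0680), Sema5b at -0.99 (0.121) and Sema4c at -0.74 (0.0683). Sema6b was at 0.70 (0.0888), Ephb2 at -0.51 (0.141) and Ntn1 at -0.43 (0.0824). Fits of a single dye hold fewer values, and Slit2 was not tested with Cy3 alone, nor Dcc and Sema6b with Cy5 alone. Of the 27 calls, 18 were kept with Cy3 and 16 with Cy5. With Cy3 channels alone Efnb3 (0.55, adjusted p = 0.0812), Ephb4, Plxna1, Sema5b, Epha2, Sema3f, Sema4b and Sema4g were not past the threshold, and with Cy5 channels alone Sema4a (0.63, adjusted p = 0.0858), Plxnb1 (-0.50, adjusted p = 0.0953), Slit2, Ephb2, Robo4, Efna2, Ntn1, Sema4c and Sema3f were not. Without E15 controls 1 and 2, all 27 genes kept their call and 1 more, a lower one, was added.

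Markers of cell types also differed between the ages. Of 8 neuronal markers 6 rose and none fell, and of 10 progenitor markers 2 rose and 4 fell. Of 9 forebrain markers tested 2 fell and none rose, and of 9 hindbrain and cord markers tested 2 rose and 2 fell. Of 10 meningeal markers 4 fell and none rose, and all 4 tested erythroid genes fell. Over all features 10.7% were called higher and 22.8% lower, and the count of lower forebrain markers is near that share. How far such differences in markers bear on the guidance genes was not tested.

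The animals labelled knockout gave the same comparison of ages in other animals on the same arrays. There 8 guidance genes rose and 13 fell, against 8.72% of all 24760 features called higher and 15.1% lower, together 23.8%. Both genotypes called 19 genes, all in the same direction, which is 70.4% of the control list and 90.5% of the knockout list. The same overlap over all features is not given here, so these shares are not set against those of other genes. Both lists also share scan days and software versions. Dcc and Ntn4, called higher in both, entered the knockout test through P1 alone, and the filter favours such calls. Only 2 of 14 and 6 of 14 E15 knockout channels read them well above background. Epha5 changed by 0.93 ± 0.18 (limma adjusted p = 0.00344), Efnb1 by -1.13 ± 0.27 (0.0111), Robo3 by -0.99 ± 0.15 (0.000764) and Plxna1 by -1.22 ± 0.24 (0.00390). Epha3 and Slit1 were called in knockouts alone, at -0.74 and -0.37, against -0.58 and -0.16 in controls.

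**Figure D3:**
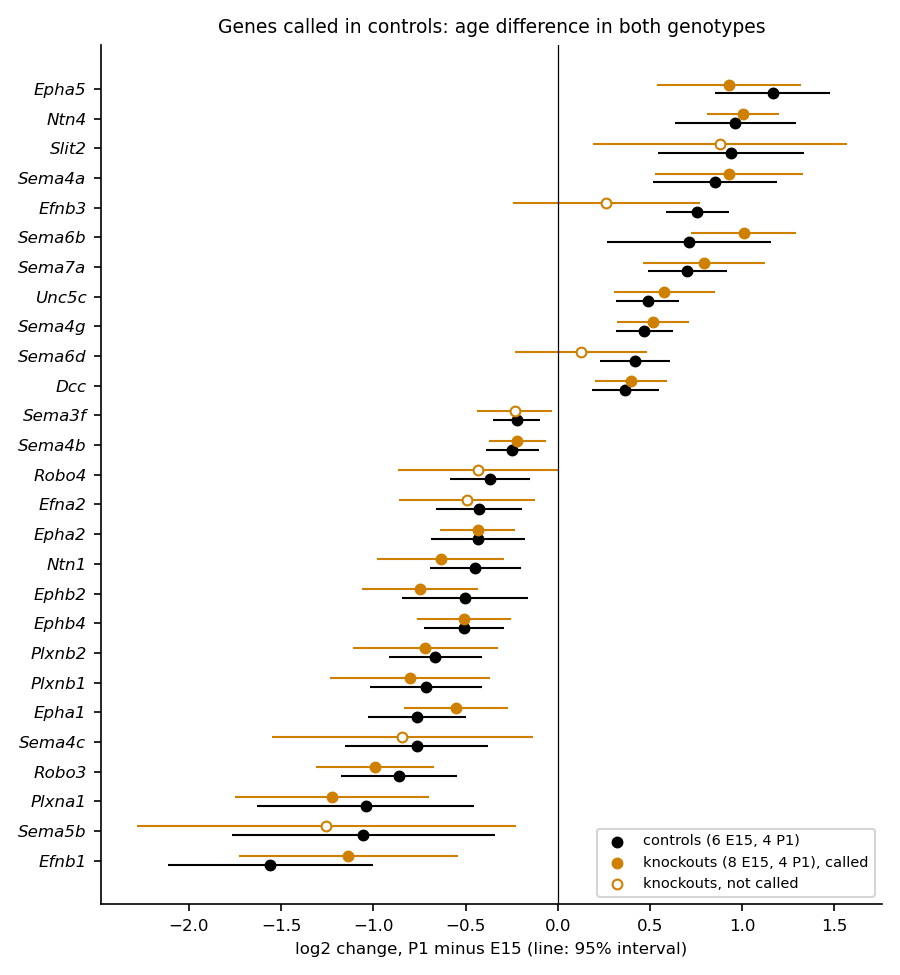
Log2 change from E15 to P1 of the 27 genes called in controls (black, 6 and 4 animals) beside the same change in knockouts (orange, 8 and 4 animals, filled where adjusted p is under 0.05); lines are 95% intervals. All 27 lie on the same side of 0 in both genotypes, and Efnb3 and Sema6d are nearer to 0 in knockouts, at 0.26 and 0.12.

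Of the 27 genes called in controls 8 were not called in knockouts: Slit2, Efnb3, Sema6d, Sema3f, Robo4, Efna2, Sema4c and Sema5b. For 6 of them the estimate in knockouts was close to or beyond that in controls, with a larger SE. Sema5b read -1.25 ± 0.47 in knockouts (adjusted p = 0.0726), Sema4c -0.84 ± 0.33 (0.0790), Slit2 0.88 ± 0.31 (0.0621), Robo4 -0.43 ± 0.20 (0.136), Efna2 -0.49 ± 0.17 (0.0537) and Sema3f -0.23 ± 0.09 (0.0905). The estimates nearer to 0 were those of Efnb3, at 0.26 ± 0.23 (adjusted p = 0.438), and Sema6d, at 0.12 ± 0.16 (adjusted p = 0.615). Whether age changed a gene differently in the genotypes is tested below as the difference of the knockout effects.

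The second comparison asked whether the guidance genes differed between animals labelled knockout and control at E15. Of 61 genes that passed the filter none was called, as was none of all 24469 features (0% by limma), with 2 of the 61 and 1686 of all features under an unadjusted p of 0.05. Dcc, Ntn4, Plxna4 and Sema3d were too dim at E15 for this test. The median log2 ratio of knockout over control was 0.03, and estimates ran from -0.20 to 0.37. All 61 intervals lay within a 2-fold change in either direction.

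Robo2, a receptor of Slits, had the lowest p. Its ratios over the 8 replicates were 0.05, 0.38, 0.63, 0.88, 0.13, 0.22, -0.08 and 0.80, so 7 of 8 were above 0, with an estimate of 0.37 ± 0.12 and an adjusted p of 0.719. Its other 5 probes gave between 0.01 and 0.19. Sema3a, the secreted repellent that acts through neuropilin 1, was above 0 in 6 of 8 replicates, at 0.12 ± 0.05 (adjusted p = 0.719). Epha5 read 0.30 ± 0.14 and Plxnc1 0.27 ± 0.13 (both adjusted p = 0.726), with 5 and 7 of 8 replicates above 0. None of these differed beyond the spread between replicates after adjustment.

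Replicate 8 stood apart in the meningeal markers, whose median ratio was 2.71 there and between -2.06 and 0.49 in the others. Without replicates 1, 4 and 8, and without the block for shared controls, again no guidance gene was called, with Robo2 at 0.25 and Epha5 at 0.43 (both adjusted p = 0.729). Leaving out the block alone gave 0.38 for Robo2 and 0.30 for Epha5 (adjusted p = 0.630 and 0.642). Replicates 1 to 4 were scanned on 1 day and 5 to 8 on the others. The means of these sets had the same sign for 28 of the 61 genes (45.9%), against 46.5% of all features. For Robo2 they were 0.48 and 0.27, for Epha5 0.47 and 0.13, for Plxnc1 0.52 and 0.03, and for Sema3a 0.13 and 0.10, genes chosen for their low p over the same replicates.

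At P1 all 65 genes could be tested, none was called, and none of 23725 features was (0% by limma). An unadjusted p under 0.05 was reached by 7 of the 65 and by 2216 of all features. Estimates ran from -0.53 to 0.36 with a median of 0.03, and all 65 intervals lay within 2-fold. As at E15, the added offset makes this no bound for dim genes.

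Efnb3 was lowest, with ratios of -1.05, -0.65, -0.00 and -0.41 in the 4 replicates, an estimate of -0.53 ± 0.17 and an adjusted p of 0.490. All 4 ratios lay below 0, but replicate 3 was at the control level. Sema6d was also below 0 in all 4 replicates, at -0.16 ± 0.05 (adjusted p = 0.493). Its other probes read 0.19 and -0.07, and the mean of its probes was -0.02 (adjusted p = 0.923). Efna5, an ephrin that guides topographic maps, was above 0 in 3 of 4, at 0.31 ± 0.10 (adjusted p = 0.498), while its other probe read -0.04. Ephb3 was above 0 in 4 of 4, at 0.17 ± 0.06 (adjusted p = 0.50). The knockout and control animals of a pair also differed in forebrain markers, whose median ratios were 0.84, -0.68, 0.80 and -0.31 in replicates 1 to 4. The summed signal of the 8 neuronal markers was lower in every P1 knockout (17167 to 19752) than in every P1 control (20028 to 23079). Of the 8 markers 6 were below 0, with a median ratio of -0.20 and none called. By replicate the median ratios of neuronal markers were -0.34, -0.21, -0.09 and 0.08, the last above 0. The part of these markers in the Efnb3 and other values was not tested.

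**Figure D4:**
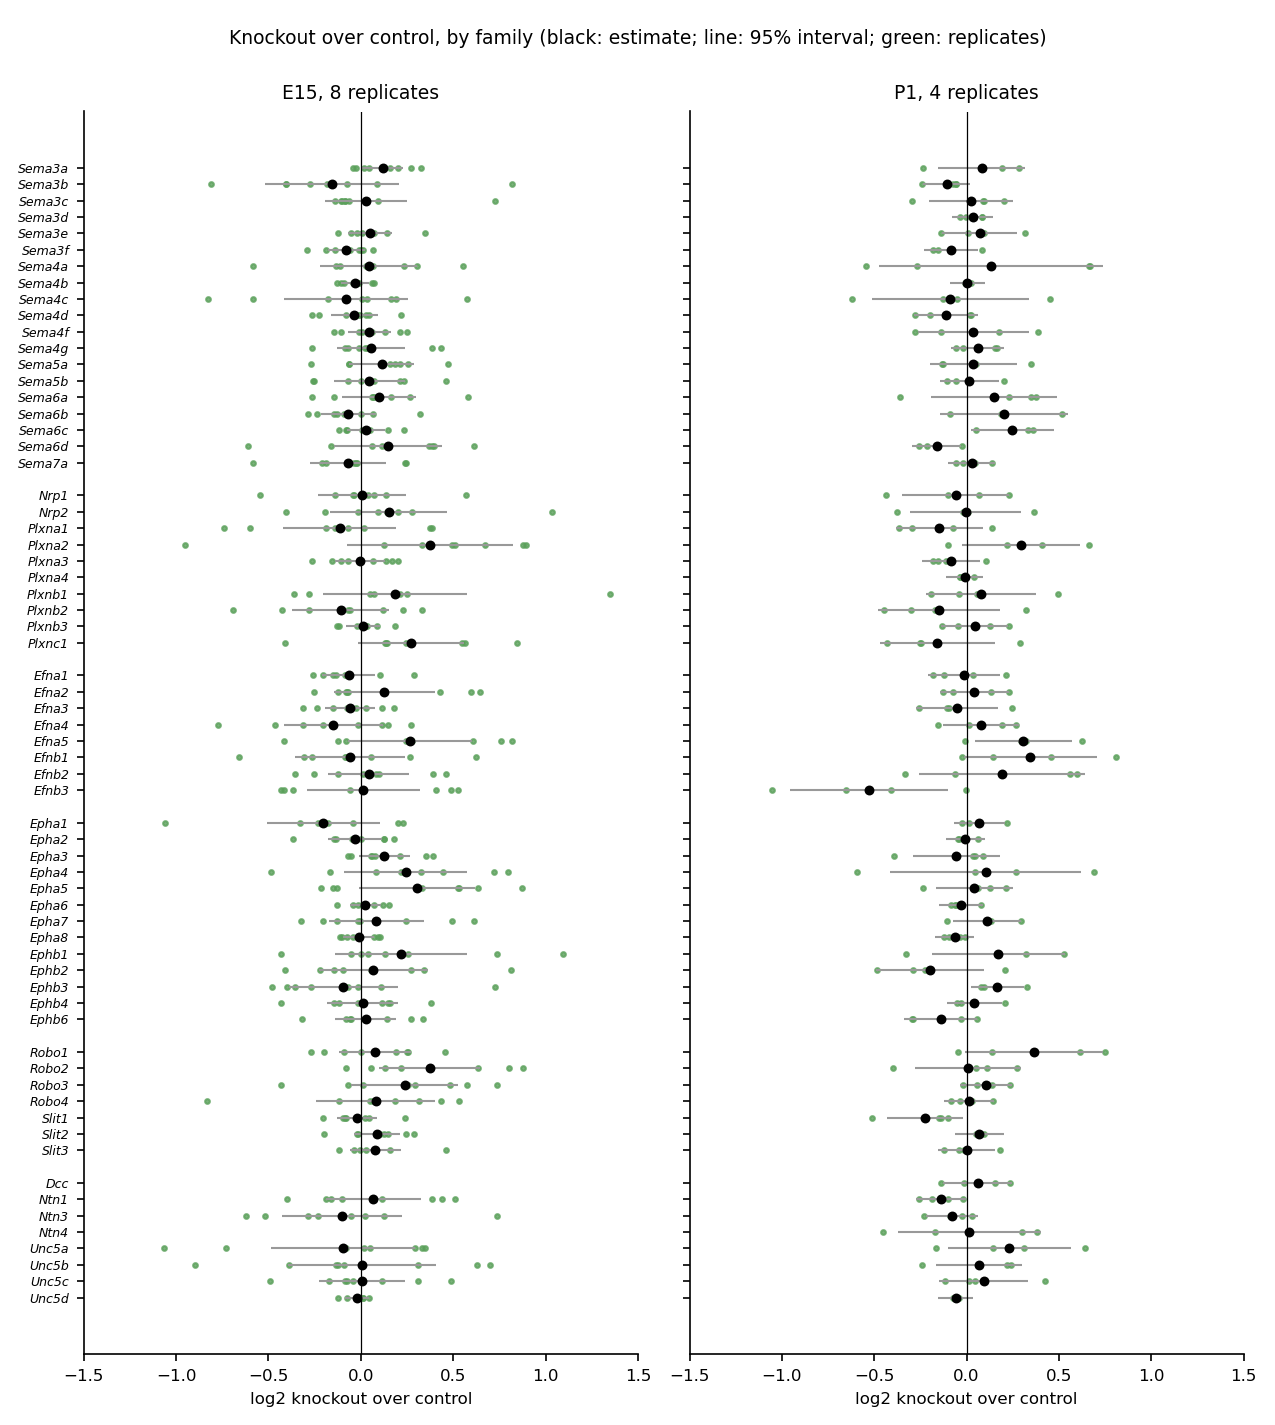
Log2 ratio of knockout over control at E15 (left, 8 replicates, 61 genes; Dcc, Ntn4, Plxna4 and Sema3d not tested) and P1 (right, 4 replicates, 65 genes), by family; black points are limma estimates, grey lines 95% intervals and green points replicates. Replicates scatter on both sides of 0 for most genes, and Efnb3 at P1 is the lowest estimate, at -0.53.

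The difference between the knockout effects at P1 and E15 was not called for any of 61 guidance genes, nor for any of 22445 features (0% by limma), with 2 and 992 under an unadjusted p of 0.05. Sema6c differed by 0.22 ± 0.09, Efnb3 by -0.54 ± 0.24, Slit1 by -0.20 ± 0.09 and Plxnc1 by -0.43 ± 0.21, all with an adjusted p of 0.973. The E15 ratios of Efnb3 ran from -0.43 to 0.53, 4 of 8 above 0. The values of Efnb3 in the age comparisons and in the knockout comparison at P1 come from the same P1 animals and are not separate evidence.

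Genes that act beside these families, on a list of 69 adhesion molecules, cytoskeletal regulators and signalling partners, were read in the same fits. Of 66 tested with age in controls 12 rose and 12 fell, with a median change of 0.06. Over all features 10.7% were called higher and 22.8% lower. Cntn1, an immunoglobulin-family adhesion molecule of axons, rose by 2.46 ± 0.23 (adjusted p = 9.5e-05). Rnd1, a small GTPase that binds plexins, and Dscam, an adhesion molecule that also binds netrin, rose by 0.91 and 0.89. Rgs3, which links B ephrins to G protein signalling, fell by 1.15 on the log2 scale, Abl1, a kinase downstream of Robo, by 0.96, and Vav2, an exchange factor downstream of Eph receptors, by 0.82. All 3 Srgap genes, the GTPase-activating proteins that bind Robo, were called higher, at 0.52, 0.64 and 0.86, a set singled out after its values were seen. With scan day as a random block Rnd1, Rgs3 and Vav2 missed the threshold at changes of 0.89, -1.08 and -0.77 (adjusted p = 0.102, 0.0589 and 0.0538). In the knockout comparisons none of the 67 tested at E15 and none of the 65 tested at P1 was called.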

How the data were processed

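The authors deposited scanner files of 22 arrays with spot intensity and local background intensity in both dyes, and a matrix of log10 ratios of red over green. Per the file headers, the deposited intensities were extracted with Agilent Feature Extraction 8.1.1.1 at E15 and 8.5.1.1 at P1. The deposited log10 ratios differed from those in the scanner files by at most 0.0050, so their scale and direction are known, and their median per array ran from 0 to 0.00399. Gene names are those of the E15 files, and 80 of the 110 probes matched RefSeq by accession. Probe sequences were not used here.

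Intensities were background-corrected (limma 3.58.1, normexp, offset 50), normalized by loess within and Aquantile between arrays, and outlier spots were set to missing. Both dyes of an animal were averaged to 1 value. Where 1 dye was missing, the mean dye effect of animals with both was taken off. This applied to 132 ratios of guidance genes at E15, mainly of replicates 3 and 4. Features well above background in at least 50% of channels (for age, of the genotype's channels at either age; for knockout ratios, of all channels of that age, and of each age for their difference), with values in at least 75% of animals, entered lmFit and eBayes, with Benjamini-Hochberg adjustment over all features. In the E15 ratios, replicates that share a control were a random block. The fits were tested on simulated data. The genes and lists were chosen with earlier results of these data known. Genes detailed were, per family, the 4 called genes of largest change, per knockout comparison the 4 of lowest p, and, of the other guidance genes, the 3 of largest change in each direction; further called genes are given so that all are accounted for. RefSeq promoters are from build GRCm38.p6. The number of arrays limits the precision.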

Additional observations from a re-analysis of the deposited data

Results flagged for a closer look

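In 3 of 72 groups of values tested, 1 animal lay far from the others of its group by Dixon's criterion, where chance gives 3.6. Epha1 in E15 controls was highest in control 1, at 7.61 on the log2 scale of normalized signal, with the next animal at 7.08. This animal also had the highest meningeal and muscle signal of the E15 controls, and without it and control 2 the change of Epha1 was -0.68 (limma adjusted p = 0.000174). Robo3 in E15 controls was highest in control 6, at 8.37, with the next animal at 7.82. Efnb1 in P1 controls was highest in control 1, at 8.29, with the next at 7.80, and this value lay below every E15 control.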

How the results depend on the processing

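Counts of called guidance genes with age in controls ran from 8 to 12 higher and from 6 to 20 lower over 11 alternatives. The lower count of 16 became 10 with Cy3 channels only, 9 with Cy5 channels only and 6 with scan day as a random block, and in knockouts the scan-day block left 4 of 13. Leaving out 1 animal gave 9 to 12 higher and 14 to 19 lower in controls, and 7 to 9 higher and 11 to 16 lower in knockouts. Every knockout comparison kept 0 calls under each alternative run. Alternatives were followed for the genes detailed, 33 and 27 with age in controls and knockouts and 4 in each knockout comparison. Among these the direction turned once, for Sema6c in the difference of knockout effects, at -0.11 with the mean of all probes (limma adjusted p = 0.962). Replicate numbers recur at both ages, and deviations of same-numbered ratios correlated at -0.12, -0.08, 0.12 and 0.15. These values cannot tell whether same-numbered animals are related, and the main fits did not pair them. The replicate block gave 9 higher and 14 lower genes with age in knockouts and 0 for the difference of effects. With scanner processed signals Robo4 (-0.51, adjusted p = 0.0581), Sema3f (-0.31, 0.214), Sema4b (-0.43, 0.108) and Sema6d (0.46, 0.0739) missed the threshold at changes no smaller than with the main processing, and this setting gave 3.30 for Ntn4 and 1.96 for Dcc, which are near background at E15. The cause of these shifts was not tested. Scan day at P1 could not be run, since all P1 arrays share 1 day. The choice to leave out the animals rich in meningeal signal was made after seeing the data.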
